A study of Sus scrofa with 30 samples.

Results

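The whey protein genes LALBA, WAP and PAEP were followed through pregnancy, lactation and weaning in the mammary gland of sows. Every transcript that the RefSeq annotation of the Sscrofa11.1 pig genome gives to these genes was taken, which came to 3 genes and 4 transcripts of the 61773 transcripts measured. Of all transcripts, 32688 carried a gene symbol and belonged to 14913 genes, and 29085 carried none. LALBA lies on chromosome 5 (79214487 to 79216791) and has 1 transcript. WAP lies on chromosome 18 (50359599 to 50361906) and has 2 transcripts, of which NM_213841.2 was the abundant one and stands for WAP unless the other is named. PAEP has 1 transcript and lies on a sequence that this build does not place on a chromosome.

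RNA-seq was made from mammary parenchyma of multiparous half-sibling sows (Danish Landrace × Yorkshire), with different sows at each stage. The 5 stages were mid-gestation (MG, day 70 of gestation), late gestation (LG, day 110 of gestation), early lactation (EL, day 2 postpartum), peak lactation (PL, day 10 postpartum) and the start of involution (W2, 2 days after weaning). Each stage had 6 of the 30 samples, taken below the third left teat of slaughtered animals, and no animal received a treatment. The question put to the data was how the transcripts of the main whey proteins change from stage to stage and relative to the caseins.

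Some properties of the samples bear on every value given here. In each stage 3 of the 6 samples were near-identical, with median differences of at most 1.80 to 1.85% between any pair of them against 19.6 to 59.8% between the other 3, and over transcripts the typical gap between their mean and that of the other samples was 0.689 to 0.741%. Those near-identical samples were not counted, which left n = 3 per stage and 15 samples in all. The counted samples were MG 1, 3 and 6, LG 1, 3 and 4, EL 3, 4 and 6, PL 2, 3 and 6, and W2 2, 3 and 6. The titles and the stage names in the sample records disagree for EL and MG, where samples titled EL carry the name of mid-gestation and samples titled MG that of early lactation. The titles were followed. PL 2 stood apart from the other peak lactation samples. Its typical transcript was lower, with a scaling factor by median ratios of 0.567 against 0.841 in PL 3 and 0.840 in PL 6. The main tests of LALBA, WAP and the ratios are therefore given without PL 2 as well. Calls of the second WAP transcript and of genes other than the whey genes are given with PL 2 only. Values are TPM, a share of all transcripts corrected for transcript length, and are called units. A unit can therefore be compared between genes, and a very abundant transcript lowers the units of all others. Reads per transcript were not given, so the depth behind a single value is unknown and its precision comes from the spread between samples alone. The tissue is a mixture, in which fewer cells of a type and less RNA per cell cannot be told apart.

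Milk protein consists of caseins, which form micelles, and of the whey proteins that stay in solution. LALBA encodes alpha-lactalbumin, which binds the galactosyltransferase B4GALT1 in the Golgi of the secretory cell and turns it into lactose synthase. Lactose draws water into milk, so this protein is tied to milk volume. WAP encodes whey acidic protein, a small protein built on the four-disulfide core fold that is present in the milk of pigs, rodents and rabbits. PAEP is the symbol of the porcine gene for beta-lactoglobulin, a lipocalin that binds small hydrophobic molecules. In the secretory epithelium, milk protein genes are induced by prolactin through STAT5 together with glucocorticoids.

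Stage differences were tested with limma on log2(value + 0.5), and a transcript was called a differentially expressed transcript (DET) when its adjusted p was below 0.05 and its log2 fold change at least 2 in either direction. LALBA and WAP were DETs between PL and both gestation stages and between PL and W2, with the highest stage means at PL and the lowest after weaning, whereas PAEP was the most abundant transcript of the gland in 15 of 15 samples, pregnancy and involution included. Between the lowest and the highest sample, LALBA covered a 13365-fold range, WAP a 14178-fold range and PAEP a 1.51-fold range. The plot of the levels by stage shows both patterns.

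**Figure D1:**
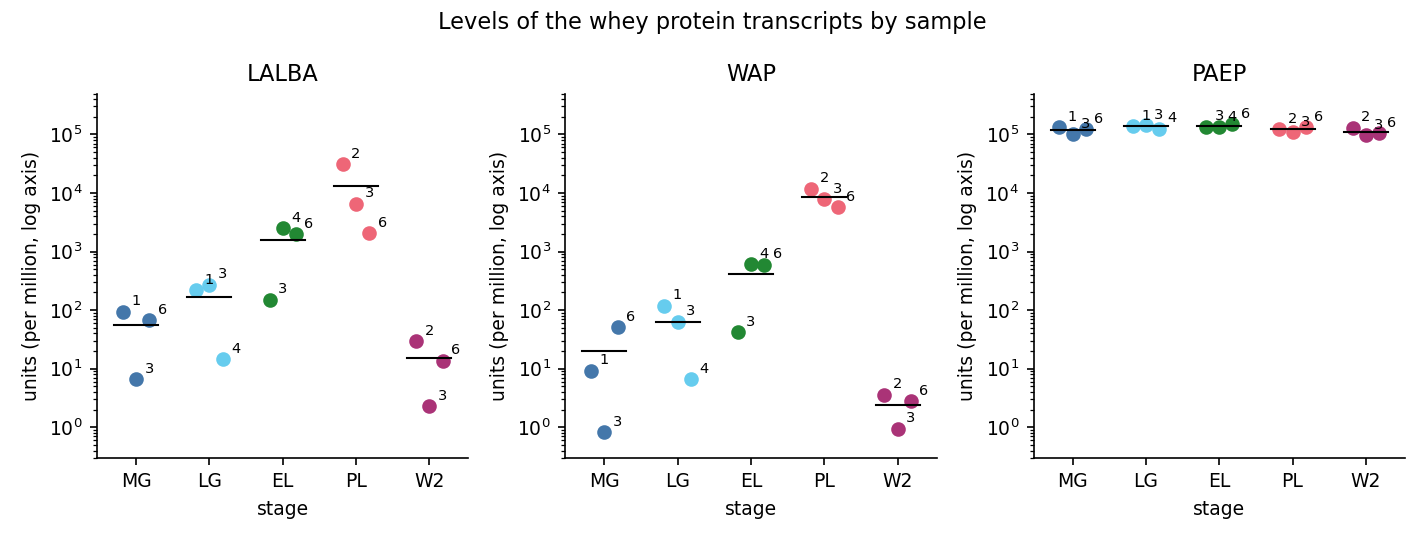
Units of LALBA, WAP and PAEP (log axis) in each of the 15 counted samples by stage, with the sample number beside each point and a black bar for the stage mean. The means of LALBA and WAP are highest at PL and lowest at W2, although the lowest WAP sample is MG 3, while PAEP lies between 98685 and 148574 units in all samples.

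LALBA stood at 94.1, 6.60 and 66.7 units in MG 1, 3 and 6. In LG 1, 3 and 4 it stood at 217, 272 and 14.6 units. The gestation samples overlapped, and one sow of each gestation stage had a level far below the other two. At EL the levels were 151, 2501 and 1988 units in samples 3, 4 and 6. At PL they were 30875, 6565 and 2041 units in samples 2, 3 and 6. EL 3 was below both higher LG samples, and PL 6 was below EL 4, so neither step separated the samples. At W2 LALBA was down to 29.5, 2.31 and 13.7 units in samples 2, 3 and 6, below every EL and PL sample and overlapping with MG and LG.

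The stage means of LALBA were 55.8 ± 44.8 units for MG, 168 ± 136 for LG, 1547 ± 1235 for EL, 13160.1 ± 15507 for PL and 15.2 ± 13.6 for W2 (SD, n = 3). By these means it ranked 95 of all transcripts at EL, 450 at LG, 1566 at MG and 5946 at W2. At PL it ranked 10 by the mean of the stage, and 6, 18 and 56 within PL 2, 3 and 6. The order of the stages was therefore W2, MG, LG, EL and PL, and in that order the samples of each pair of neighbours overlapped. The SD at PL was larger than the mean because PL 2 alone held 30875 units, and without it the mean was 4303 units.

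LALBA was a DET in 3 of the 10 comparisons. It was higher at PL than at MG by 7.71 on the log2 scale (SE 1.50, adjusted p = 0.0125), in a comparison in which 1.76% of all transcripts were DETs. It was also higher at PL than at LG by 6.27 (SE 1.50, adjusted p = 0.0484), where the share of DETs was 1.09%. From PL to W2 it fell by 9.45 (SE 1.50, adjusted p = 0.0033), where 2.84% of transcripts were DETs. In all 3 the samples of the stages compared did not overlap, which was also so for 21.1%, 18.8% and 24.2% of all transcripts respectively.

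The call at PL against LG was close to the threshold and was made in 9 of 28 alternative settings. It was lost without PL 2 (log2 fold change 5.25, adjusted p = 0.161) and without any of 12 other single samples, and all of these fits gave a higher level at PL. Without PL 2 the difference from MG was 6.68 (adjusted p = 0.0498) and that from W2 was -8.43 (adjusted p = 0.0142), both still DETs. Leaving out MG 3, the MG sample with the least LALBA, ended the call at PL against MG, with a log2 fold change of 6.55 and an adjusted p of 0.0665. That call was also lost with the replicate number as a block (adjusted p = 0.0765), with the 2 stages fitted alone (adjusted p = 0.103) and with the stage names of the sample records (log2 fold change 3.03, adjusted p = 0.554).

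The steps of LALBA between successive stages up to PL did not pass the test. From MG to LG the log2 fold change was 1.44 (95% interval -1.80 to 4.67, adjusted p = 1 by limma), with DETs at 0.0162% of transcripts. From LG to EL it was 3.24 (0.01 to 6.47, adjusted p = 0.881), with DETs at 0.0178%. From EL to PL it was 3.03 (-0.20 to 6.27, adjusted p = 0.554), with DETs at 0.408%. These intervals are wide, and they include differences of more than 4 on the log2 scale at each step. EL and MG samples did not overlap, as for 15.4% of all transcripts, with a log2 fold change of 4.68 (adjusted p = 0.525, DETs 0.0389%). W2 and EL samples did not overlap either, as for 19.5% of all transcripts, with a log2 fold change of -6.42 (adjusted p = 0.175, DETs 0.0631%). The comparisons of W2 with MG, at -1.75 (adjusted p = 1, DETs 0.0275%), and of W2 with LG, at -3.18 (adjusted p = 0.822, DETs 0.0324%), also missed the threshold.

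**Figure D2:**
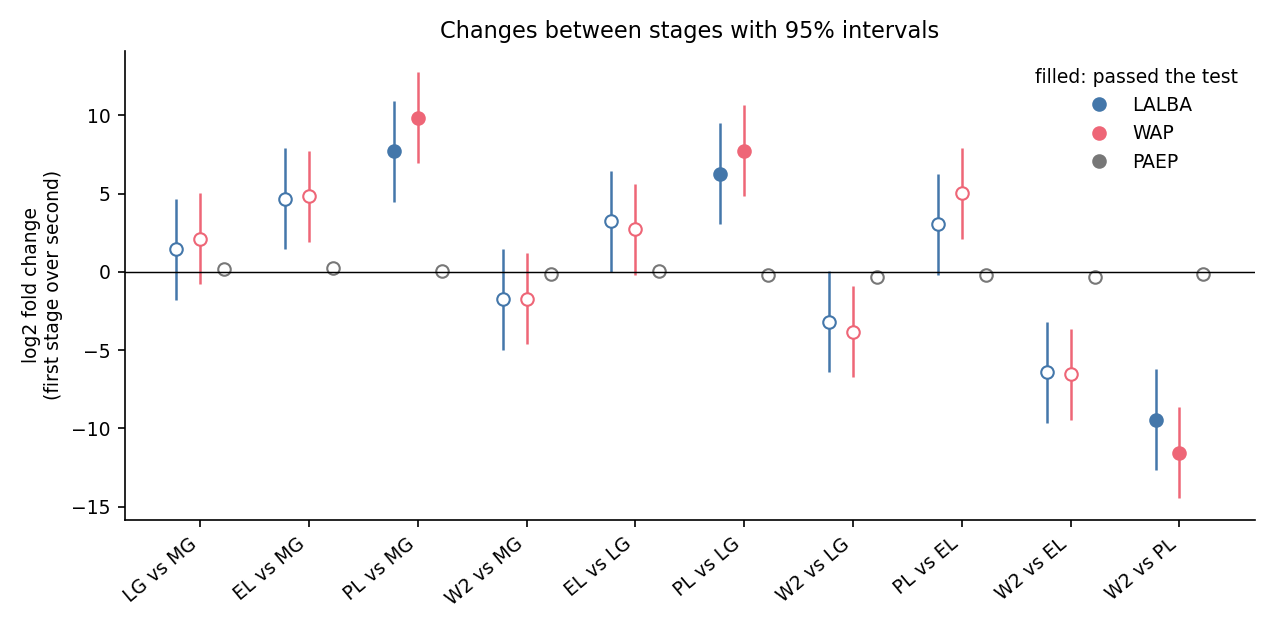
Log2 fold changes with 95% intervals of LALBA, WAP and PAEP in the 10 comparisons between stages, filled where the transcript was a DET. LALBA and WAP have filled points for PL against MG, PL against LG and W2 against PL, while all PAEP points lie between -0.34 and 0.23.

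WAP stood at 9.21, 0.836 and 50.9 units in MG 1, 3 and 6. In LG 1, 3 and 4 it stood at 119, 63.4 and 6.62 units. As for LALBA, MG 3 and LG 4 were the lowest samples of their stages. At EL the levels were 42.4, 606 and 599 units in samples 3, 4 and 6. At PL they were 11846, 7901 and 5764 units in samples 2, 3 and 6. All PL samples were far above all EL samples. At W2 WAP stood at 3.59, 0.950 and 2.76 units in samples 2, 3 and 6, below all LG, EL and PL samples. W2 and LG samples did not overlap for 12.5% of all transcripts, and W2 and MG samples, which overlapped for WAP, did not for 8.21%.

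The stage means of WAP were 20.3 ± 26.8 units for MG, 63.2 ± 56.4 for LG, 416 ± 323 for EL, 8503 ± 3085 for PL and 2.43 ± 1.35 for W2 (SD, n = 3). It ranked 17 of all transcripts at PL and 23923 at W2. The order of the stages was that of LALBA, and EL and PL were the only neighbours in it whose samples did not overlap. The sows of peak lactation were closer to each other for WAP, with a coefficient of variation of 36.3%, than for LALBA, with one of 118%.

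WAP was a DET in 3 of the 10 comparisons, the same 3 as LALBA. It was higher at PL than at MG by 9.86 on the log2 scale (SE 1.34, adjusted p = 0.00178 by limma) and higher than at LG by 7.75 (SE 1.34, adjusted p = 0.0104). From PL to W2 it fell by 11.57 (SE 1.34, adjusted p = 0.000588), and this call held in 28 of 28 alternative settings. Without PL 2 the 3 differences were 9.59, 7.47 and -11.30, and all remained DETs (adjusted p = 0.00697, 0.0338 and 0.00239). With the stage names of the sample records, the difference between PL and MG was 5.03 and no longer called (adjusted p = 0.141), and it also missed the threshold with the 2 stages fitted alone (adjusted p = 0.0649). Without LG 4 the difference between PL and LG was 6.54 and its adjusted p was 0.0555, and that call was also lost under the replicate block (adjusted p = 0.165) and with the 2 stages alone (adjusted p = 0.0923). From EL to PL the log2 fold change was 5.03 (SE 1.34, 95% interval 2.12 to 7.93, adjusted p = 0.141), which missed the threshold although the samples did not overlap, as did those of 11.4% of all transcripts between these stages. The log2 fold changes were 2.12 from MG to LG (adjusted p = 0.974) and 2.72 from LG to EL (adjusted p = 0.881), with samples of both pairs overlapping. Samples of 9.54% of all transcripts did not overlap between MG and LG, and those of 11% did not between LG and EL.

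The second WAP transcript, XM_013985798.2, was scarce and changed with the first. It held 206, 203 and 146 units in PL 2, 3 and 6, which was 1.71 to 2.51% of all WAP units of these samples. In the other stages it ranged from 0.188 units in W2 3 to 26.4 units in EL 4. Both transcripts come from the same short locus, and how reads were divided between them was set by the estimation that produced the units. This transcript was a DET at PL against MG (log2 fold change 7.26, adjusted p = 0.000586), LG (6.56, adjusted p = 0.00142) and EL (3.98, adjusted p = 0.0389), and at W2 against PL (-7.66, adjusted p = 0.000342). WAP lies within the annotated span of RAMP3, a gene for a receptor accessory protein, and the library kit does not keep the strand. RAMP3 summed to 0.163 to 3.71 units per sample, against at least 5764 units of WAP in every PL sample. In MG 3, W2 3 and W2 6, however, RAMP3 was above WAP, at 1.72, 1.98 and 3.71 units against 0.836, 0.950 and 2.76. In the other counted samples WAP was the higher. Whether RAMP3 reads entered the lowest WAP values was not tested.

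PAEP stood at 133990 units in MG 1, 100471 in MG 3 and 124973 in MG 6. In LG 1, 3 and 4 it stood at 140236, 144915 and 125190 units. At EL the levels were 135972, 133914 and 148574 units in samples 3, 4 and 6. Apart from MG 3, these gestation and early lactation samples lay between 124973 and 148574 units, with the stages overlapping. At PL the levels were 122069, 110169 and 134097 units in samples 2, 3 and 6. At W2 they were 130309, 98685 and 104359 units in samples 2, 3 and 6. Every W2 sample was below every EL sample, and this was the only pair of stages whose PAEP levels did not overlap. Samples of W2 and EL did not overlap for 19.5% of all transcripts.

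The stage means of PAEP were 119811 ± 17345 units for MG, 136780 ± 10307 for LG, 139487 ± 7937 for EL, 122112 ± 11964 for PL and 111118 ± 16861 for W2 (SD, n = 3). The order was W2, MG, PL, LG and EL, and all neighbours in it overlapped. The coefficient of variation within a stage was 5.69 to 15.2%, against 79.9 to 118% for LALBA. PAEP was a DET in 0 of the 10 comparisons and also in 0 of the 10 in each of the 28 alternative settings. In some settings its adjusted limma p was below 0.05, down to 0.000116 at W2 against EL, so the size required decided there. The log2 fold changes of PAEP stayed between -0.88 and 0.70 over all settings, and quantile normalization sets them to no difference. By unadjusted p below 0.05 in limma, PAEP would differ in 2 of the 10 main comparisons. At W2 against EL the log2 fold change was -0.34 (SE 0.12, 95% interval -0.60 to -0.07, unadjusted p = 0.0168, adjusted p = 0.341 by limma). At W2 against LG it was -0.31 (-0.57 to -0.04, adjusted p = 0.797). The intervals of the other 8 comparisons included 0, and the 10 intervals together reached from -0.60 to 0.49. A missed threshold does not show that the stages were alike, but on this scale differences beyond these bounds are outside the 95% intervals.

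How far PAEP moved depended on the scaling of the samples. The median log2 fold change of all transcripts was -0.39 at PL against MG and 0.49 at W2 against PL, so the typical transcript took a smaller part of the units at PL. When samples were scaled by median ratios, PAEP was higher at PL than at MG by 0.70 (adjusted p = 0.0914) and lower at W2 than at PL by a log2 fold change of -0.88 (adjusted p = 0.031), and its difference between PL and LG turned from -0.17 to 0.34. None of these reached the log2 fold change of 2. LALBA and WAP were higher at PL than at MG, LG, EL and W2 under each scaling tried.

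**Figure D3:**
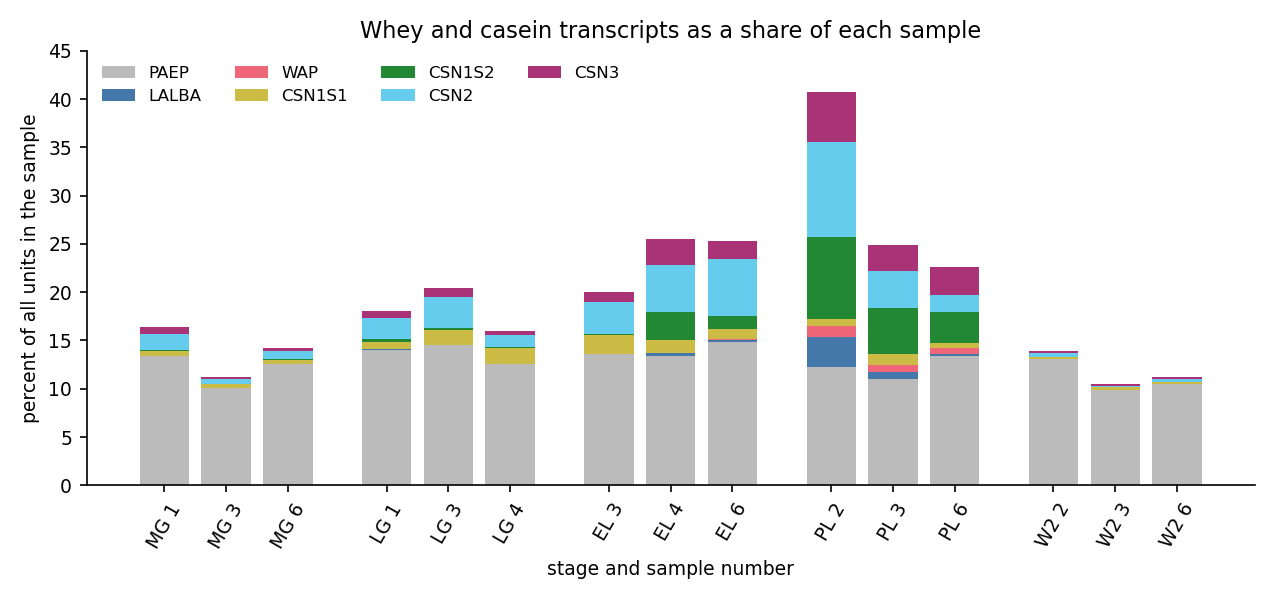
Percent of all units held by PAEP, LALBA, WAP and the 4 caseins in each counted sample, as stacked bars from 0. PAEP holds 9.89 to 14.9% in every sample, and LALBA and WAP are hardly visible outside PL.

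The 3 whey genes and the 4 caseins together made up 11.3 to 16.4% of all units at MG, 15.9 to 20.5% at LG, 20.0 to 25.5% at EL, 22.6 to 40.7% at PL and 10.5 to 13.9% at W2. Within this milk protein total, whey held 86.4 ± 3.89% at MG, 76.0 ± 4.22% at LG, 60.6 ± 7.20% at EL, 51.2 ± 11.3% at PL and 93.8 ± 0.834% at W2 (SD, n = 3). Almost all of the whey share was PAEP outside peak lactation. LALBA and WAP together held 0.0508% of the milk protein units at MG, 0.122% at LG, 0.780% at EL, 6.59 ± 3.58% at PL and 0.0139% at W2 (mean of 3 samples). PL 2 had the largest milk protein total, 40.7% against 24.9 and 22.6% in the other PL samples, and the smallest PAEP share of it, 30.0%.

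Ratios within a sample do not depend on how the sample was scaled, and 4 of them were compared between the 3 PL samples and the 12 others by a two-sided exact permutation test with adjustment over the 4. The smallest p this design can give is 0.0022, and with 3 against 3 samples it would be 0.10. The log2 ratio of WAP to PAEP was higher at PL by 8.60, with no overlap between PL and the other samples (exact p = 0.0022, adjusted p = 0.00879). The units of single transcripts did not overlap between PL and the other stages for 5.1% of all transcripts. The log2 ratio of LALBA to PAEP was higher at PL by 6.66 (exact p = 0.0044, adjusted p = 0.00879), with PL 6 at -6.04 below EL 4 at -5.74. Without PL 2 these differences were 8.33 (adjusted p = 0.022) and 5.64 (adjusted p = 0.0293).

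LALBA exceeded WAP in 13 of 15 samples, and both exceptions were peak lactation samples. LALBA units per WAP unit were 10.2, 7.90 and 1.31 among MG samples, 1.82, 4.30 and 2.20 among LG samples, 3.57, 4.13 and 3.32 among EL samples, and 8.21, 2.43 and 4.97 among W2 samples, each in the order of the sample numbers. At PL the ratio was 2.61 in PL 2, 0.831 in PL 3 and 0.354 in PL 6. The log2 ratio averaged -0.13 at PL and 1.81 in the other samples, a difference of -1.93 (exact permutation p = 0.0110, adjusted p = 0.0147). The samples overlapped because of PL 2, and without it the difference was -2.69 with no overlap (adjusted p = 0.022). Leaving out PL 3 gave -1.86 (adjusted p = 0.0659) and leaving out PL 6 gave -1.25 (adjusted p = 0.0879), where the smallest p possible with 2 against 12 samples is 0.0110.

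**Figure D4:**
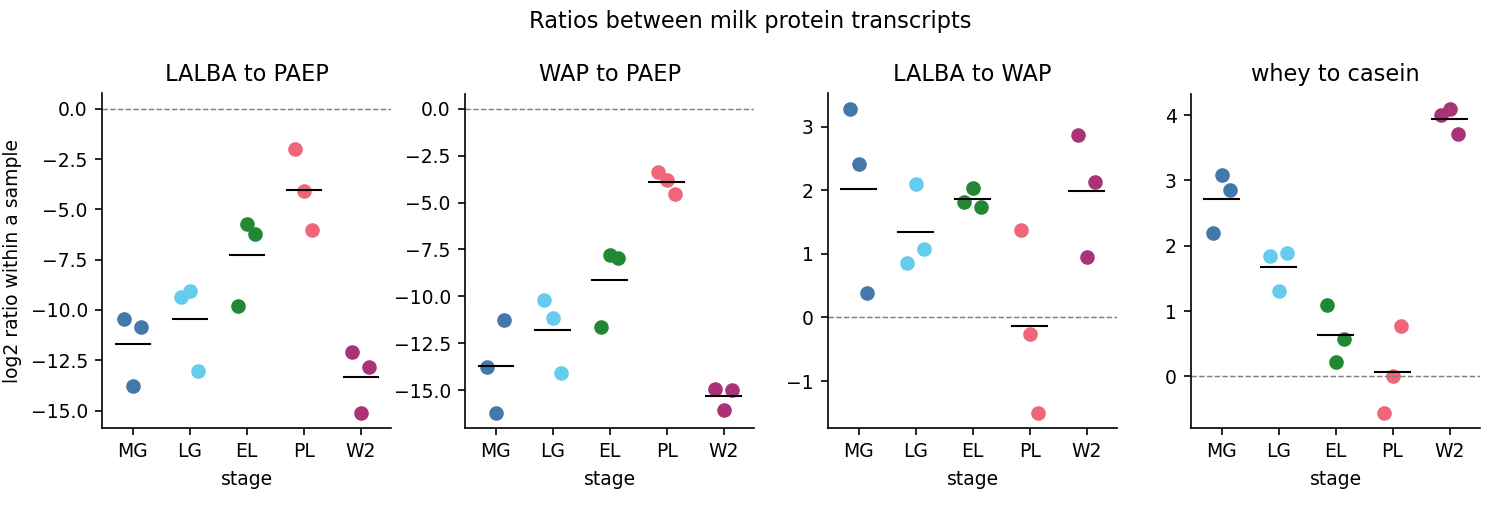
Log2 ratios within each counted sample by stage for LALBA to PAEP, WAP to PAEP, LALBA to WAP, and whey to casein, with a black bar for the stage mean and a dashed line at equality. By stage means the first 2 peak at PL, whereas LALBA to WAP and whey to casein are lowest there.

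Whey exceeded casein in 14 of 15 samples, and PAEP alone exceeded the casein sum in 13 of 15. The log2 ratio of whey to casein averaged 0.07 at PL and 2.24 in the other samples, a difference of -2.16 (exact permutation p = 0.0198, adjusted p = 0.0198). PL overlapped with EL, with PL 6 at 0.77 above EL 4 at 0.22 and EL 6 at 0.57. W2 samples, at 3.71 to 4.10, were the furthest from PL. Without PL 2 the difference was -1.85 (adjusted p = 0.0769) and without PL 3 it was -2.13 (adjusted p = 0.0659). The direction was that of PAEP against the caseins. With PAEP left out of whey, the ratio of LALBA and WAP to casein was higher at PL by 5.08 with no overlap (exact p = 0.0022), and with CSN1S2 left out of casein the whey ratio differed by -1.57 (exact p = 0.0593).

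The caseins gave the nearest comparison with other milk proteins. Of 4 casein genes, 2 were DETs higher at PL than at MG and 3 were DETs lower at W2 than at PL. DETs were 1.76% and 2.84% of all transcripts in these comparisons. The median log2 fold changes of the caseins were 2.60 and -4.10, against -0.39 and 0.49 over all transcripts. No casein was a DET from MG to LG, LG to EL or EL to PL, where DETs were 0.0162%, 0.0178% and 0.408%. CSN1S2, an alpha-S2 casein, had the range most like that of LALBA and WAP, from 0.565 units in W2 to 84107 in PL, and its log2 fold changes were 8.30 at PL against MG (adjusted p = 0.0155) and -12.44 at W2 against PL (adjusted p = 0.0014). CSN3, the kappa-casein that stabilises micelles, changed by 2.96 (adjusted p = 0.00245) and -4.17 (adjusted p = 0.000349). CSN2, beta-casein, was a DET at W2 against PL (-4.02, adjusted p = 0.00253) but not at PL against MG (2.24, adjusted p = 0.0584). CSN1S1, alpha-S1 casein, was highest at EL, with 14094 ± 4595 units against 7979 ± 2750 at PL (SD, n = 3), and was a DET in neither comparison.

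LALBA acts through B4GALT1, which was a DET in no comparison. It averaged 264 ± 44.5 units at MG, 306 ± 31.2 at LG, 407 ± 81.4 at EL, 340 ± 82.4 at PL and 236 ± 23.3 at W2 (SD, n = 3), a 2.23-fold range over samples. LALBA units per B4GALT1 unit were 0.198 ± 0.147 at MG, 0.531 ± 0.416 at LG, 3.45 ± 2.60 at EL and 0.0629 ± 0.0578 at W2 (SD, n = 3). At PL they were 75.6, 26.4 and 5.61 in samples 2, 3 and 6. LALBA transcripts thus went from fewer than those of B4GALT1 in every gestation and W2 sample to more in every PL sample. Of 11 genes of lactose synthesis, all of them measured, 0 were DETs by limma in any of the 10 comparisons, and 19 of these 110 tests had an unadjusted p below 0.05. Over all 61773 transcripts, DETs made up 0.0162 to 2.84% per comparison. An unadjusted limma p below 0.05 was found for 2733 (LG against MG) to 13805 (W2 against PL) of all transcripts. Among the 11, B4GALT1 and the UDP-glucose pyrophosphorylase UGP2 were the most abundant. The median log2 fold change of the 11 was -0.39 at PL against MG and 0.38 at W2 against PL, against -0.39 and 0.49 over all transcripts. For B4GALT1 the unadjusted p was 0.0354 at W2 against PL (log2 fold change -0.50, adjusted p = 0.184).

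Structural relatives of the 3 proteins were compared next. The lysozyme family, from which alpha-lactalbumin derives, was represented by LYZ, the antibacterial lysozyme, 1 of 8 genes listed. LYZ fell by 2.01 on the log2 scale from MG to PL (adjusted p = 0.0203) and was higher at W2 than at PL by 2.29 (adjusted p = 0.00803), the opposite direction to LALBA. Of 16 other genes with a four-disulfide core, 6 were measured and 0 were DETs by limma, with an unadjusted p below 0.05 in 5 of 60 tests and median log2 fold changes of -0.59 at PL against MG and 0.85 at W2 against PL. Over all transcripts these medians were -0.39 and 0.49, and DETs made up 0.0162 to 2.84% per comparison. An unadjusted limma p below 0.05 was found for 2733 to 13805 of the 61773 transcripts. SLPI, a protease inhibitor and the most abundant of the 6, held 22.6 to 40.5 units at PL, and WFDC1 ranged there from 0 to 48.7 units. WFDC2 had 8.25 ± 1.31 units at PL against 34.3 ± 5.75 at MG, with an adjusted p of 0.00273 and a log2 fold change of -1.99, just under the size required.

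Of 15 other lipocalins, 6 were measured, with median log2 fold changes of 0.46 at PL against MG and -0.37 at W2 against PL. PTGDS, which makes prostaglandin D2, was the DET among them, with a log2 fold change of -4.66 at W2 against PL (SE 1.30, adjusted p = 0.0486). In that comparison 2.84% of all transcripts were DETs. PTGDS held 4.18 to 199.8 units at PL and 0.772 to 5.49 at W2, so the samples overlapped. LCN2, an iron-binding defence protein, ranged from 9.43 to 1206 units at PL and from 0.392 to 18.3 units elsewhere, and passed no test (adjusted p = 0.0512 at PL against MG). APOD, a lipid carrier, stayed between 10.5 and 32.4 units. PTGDS and LCN2 were thus high in some peak lactation samples, at levels far below those of PAEP.

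Genes that act on milk protein genes were compared as well. Of 15 listed, 14 were measured, with median log2 fold changes of -0.83 at PL against MG and 0.94 at W2 against PL. Over all transcripts these medians were -0.39 and 0.49. NFIX, a nuclear factor I protein, was the DET among the listed genes, higher at W2 than at PL by 4.13 (SE 1.14, adjusted p = 0.0464). In this comparison 2.84% of all transcripts were DETs. NFIX was 0 to 33.1 units at PL and 116 to 133 units at W2. Its mean was lowest at PL, as were those of most measured genes of the list. Only the most abundant of its transcripts was used. ELF5, the transcription factor that directs alveolar differentiation, varied within stages from 8.03 to 358 units in MG and from 36.0 to 219 units in PL. CEBPB, which is needed for alveolar development, averaged 59.8 ± 44.5 units at PL and 158 ± 20.5 at W2 (SD, n = 3), with a log2 fold change of 1.64 that was below the size required (adjusted p = 0.0257).

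**Figure D5:**
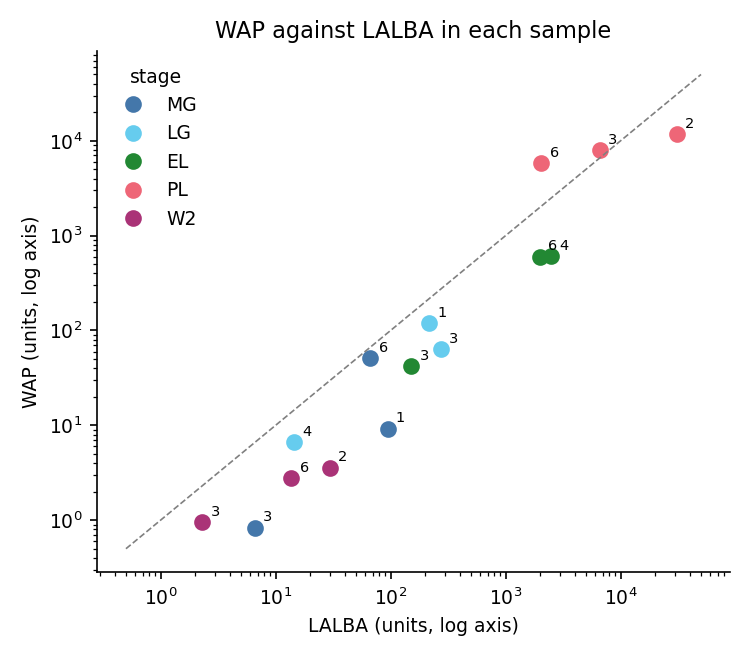
WAP against LALBA units in the 15 counted samples, both axes on a log scale, with the stages in different colours and a dashed line where both are equal. The points rise together from W2 and MG to PL, and PL 3 and PL 6 lie on the WAP side of the line.

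LALBA and WAP varied together from sow to sow. Their log2 values had a Pearson correlation of 0.97 over the 15 samples, and of 0.86 after the stage means were removed, as a description of samples that share library and scaling. Within a stage, the sample with the least LALBA was also the one with the least WAP in 5 of 5 stages, namely MG 3, LG 4, EL 3, PL 6 and W2 3. The highest sample was the same in 3 of 5 stages. For WAP and CSN1S2, the lowest and the highest sample were the same in 5 of 5 stages. The sample lowest in both whey genes was lowest in the summed luminal markers in 0 of 5 stages. PAEP shared its lowest sample with LALBA in 3 of 5 stages, and its correlation was 0.46 with LALBA and 0.38 with WAP.

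Among 5676 annotated transcripts with a mean of at least 10 units, the 5 most like LALBA were LOC110260741 and WAP, then LOC110260739, CSN1S2 and CSN3, with Pearson correlations of 0.97 to 0.96 over 15 samples. The 5 most like WAP were LOC110260741 at 0.98, LALBA at 0.97, CSN1S2 at 0.95, CSN3 at 0.94 and KDELR3, a receptor that returns proteins to the endoplasmic reticulum, at 0.94. LOC110260741 and LOC110260739 are protein-coding genes on chromosome 5 (61091785 to 61096759 and 60963037 to 60974232) without an assigned name. LOC110260741 averaged 1.24 units at MG, 3.47 at LG, 10.2 at EL, 36.1 at PL and 0.301 at W2. It passed the minimum of 10 units only through PL, the stage where LALBA and WAP are high, so its place in both lists rests on that filter. The likeness of PAEP was looser. The tight junction gene TJP3 was at 0.82, the receptor tyrosine kinase gene ERBB2 at 0.81 and the cathepsin gene CTSZ at 0.80. LOC100524679 and GUCY1A3, a guanylate cyclase subunit, were at 0.76, and no other milk protein gene was among the 5 of PAEP. TJP3 averaged 10.3, 13.1, 12.6, 6.03 and 9.05 units from MG to W2, and GUCY1A3 10.8, 18.5, 17.0, 1.94 and 3.07. Both passed the minimum of 10 units only through LG and EL, the stages with the highest PAEP means. Their places among the 5 therefore rest on that filter.

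The makeup of the tissue was set beside these results. All 8 luminal epithelial markers (KRT7, KRT8, KRT18, KRT19, EPCAM, CDH1, CLDN4 and MUC1) were measured, EPCAM being the most abundant, and they summed to 1224 to 1770 units at MG, 1411 to 1646 at LG, 1151 to 1387 at EL, 889 to 1965 at PL and 1486 to 2266 at W2. PL 2 had the lowest sum. At PL against the 12 other samples, LALBA was higher by 6.62 on the log2 scale and by 6.68 relative to the luminal sum, WAP by 8.55 and 8.62, and PAEP by -0.05 and 0.02. The exact permutation p of the relative values was 0.0066, 0.0022 and 0.956, unadjusted. LALBA units per unit of the luminal sum were 34.7, 3.34 and 1.18 in PL 2, 3 and 6, against 1.80 in EL 4 and 1.73 in EL 6, so PL 6 lay below these EL samples. Without PL 2 the difference of LALBA was 5.59, and 5.31 relative to the luminal sum, where the exact permutation p was 0.0549. That of WAP was 8.28 and 8.00 (exact permutation p = 0.0110, the smallest possible).

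Other cell types moved less evenly. Of 7 myoepithelial markers 6 were measured, KRT14 having no matched transcript, and they summed to 605 to 1594 units in PL and 516 to 1217 units in the other stages. Of 7 adipocyte markers 5 were measured, without ADIPOQ and PLIN1 and with nearly all of their units from FABP4, and they summed to 246 to 385 units in PL and 446 to 735 in the other stages. Immune markers (9 of 11 measured) summed to 725 to 907 units in PL and 421 to 2904 elsewhere. Nearly all of this was JCHAIN, the joining chain of secreted antibodies, at 710 to 891 units in PL. The median log2 fold change of the list was -0.96 at PL against MG, against -0.39 over all transcripts. Of the T cell markers, CD3E held 2.16 to 6.40 units in PL, CD3D 0.627 to 2.58 and CD4 0 to 1.78. In the other stages they ranged from 3.44 to 11.2, 1.92 to 4.36 and 0 to 4.45 units. The CD8A transcript used was at 0 in every PL sample and ranged from 0 to 6.13 units elsewhere. PTPRC averaged 4.46 units at PL and 2.49 to 5.98 in the other stages. Endothelial markers (4 of 5 measured) summed to 55.9 to 92.5 units in PL and 70.6 to 141 elsewhere. Of 7 skeletal muscle and blood markers 3 were measured, and the muscle myosin MYH2 was a DET, with 2.70 to 13.0 units in PL against 0.101 to 0.884 elsewhere (log2 fold change 3.29 at PL against MG, adjusted p = 0.00593). DETs were 1.76% of all transcripts in that comparison. The part of these differences in the levels of LALBA and WAP at PL was not tested.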

How the data were processed

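Mammary RNA of 30 sows, 6 per stage, was sequenced. Per the labels, the authors used FastQC, Trimmomatic and HISAT2 with Sscrofa11.1, and the paper's methods add StringTie for transcript assembly and quantification. The deposited values are named FPKM, but each column adds up to 997480.37 to 1002643.1, so they were treated as TPM. No reads per transcript are given. The paper's methods also describe a correction for unwanted variation, mainly differences between individuals, with the RUVSeq package. Whether that correction entered the deposited values is not given in the sources used here.

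Samples were grouped by title. The 15 counted samples were analysed as log2(value + 0.5) with limma 3.58.1 in R 4.3.3, in a single fit over the 5 stages with a variance trend and 10 comparisons, each adjusted by Benjamini-Hochberg over 61773 transcripts. Nothing marks separate batches. Sows are different animals, with 3 per stage, and the limma p-values rest on their spread within stages, pooled over the 5 stages. WAP therefore had the same SE in all 10 comparisons, although its log2 SD was 0.521 at PL and 2.64 at MG. The exact permutation tests compared the PL sows with the sows of all other stages pooled. Ratios were tested by exact permutation in Python 3.11.15 (numpy 2.4.6, pandas 2.3.3, scipy 1.17.1). The fit was checked on data with known changes.

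The members and lists were chosen with earlier results of these data known. A listed gene was represented by its transcript with the highest mean, and named where it was a DET between successive stages or at PL against MG, or among the 3 most abundant of its list. A gene that this rule would name is not reported here. Likeness was the Pearson correlation, and the 5 highest were named. Alternatives covered the pseudocount, a filter, scaling, the near-identical samples, a replicate block, the model and single samples left out. Replicate numbers did not pair the samples. Coordinates and symbols are from RefSeq.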

Additional observations from a re-analysis of the deposited data

How the results depend on the processing

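Of the 28 alternative settings, some moved the number of calls. With all 6 samples per stage LALBA was a DET in 8 and WAP in 9 of the 10 comparisons, and with the near-identical samples as 1 further sample in 5 and 6. Testing the 2 compared stages alone left 0 for LALBA and 1 for WAP. Leaving out single samples gave 1 to 3 calls for LALBA (1 without MG 3) and 2 to 3 for WAP. PAEP had 0 calls throughout.

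Replicate numbers share no label beyond the number, and same-numbered samples deviated together with correlations of -0.142 to 0.167 (19 pairs), so they do not pair the samples. With the replicate number as a block, LALBA was called in 1 comparison and WAP in 2.

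The ratio of LALBA to PAEP differed between PL and the others by 5.64 to 7.67, that of WAP to PAEP by 8.26 to 9.03, that of LALBA to WAP by -2.69 to -1.25 and that of whey to casein by -2.51 to -1.85 when single samples were left out. The weaker values were -1.86 without PL 3 and -1.25 without PL 6 for LALBA to WAP, and -1.85 without PL 2 and -2.13 without PL 3 for whey to casein. As choices made after the data were seen, whey without PAEP gave 5.08 and casein without CSN1S2 gave -1.57.

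PAEP changed sign at PL against LG (0.34 with median ratios, 0.0575 with totals that leave out milk proteins) and PL against EL (0.15 with median ratios). It also did at PL against MG without MG 3 (-0.0883) or PL 6 (-0.0365), and at EL against LG without LG 4 (-0.0329) or EL 6 (-0.0168). Leaving out single samples gave -0.0883 to 0.119 for the former and -0.0329 to 0.0726 for the latter. Quantile normalization sets PAEP, ranked 1 in each sample, to no difference. The stage names of the sample records exchange EL and MG. With them the log2 fold changes of LALBA were -3.24 (LG against MG), -4.68 (EL against MG) and -1.44 (EL against LG), those of WAP -2.72, -4.84 and -2.12, and those of PAEP -0.0295, -0.23 and -0.20, with -0.20 at PL against MG and 0.0334 at PL against EL. LALBA and WAP at PL against MG were then no DETs (3.03, adjusted p = 0.554, and 5.03, adjusted p = 0.141, limma).

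The causes of these changes were not tested, except that fewer or more samples set the degrees of freedom. Depth was not given, so the lowest WAP values, under 1 unit, have unknown precision.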
